A study of Mus musculus with 23 samples.

Results

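GABA-A receptors are chloride channels opened by the inhibitory transmitter GABA. Each is built from 5 subunits of a large gene family, usually alpha and beta subunits with a gamma or a delta subunit. Described here are the mRNAs of 7 of those subunits, Gabra2, Gabra3, Gabra4, Gabra5, Gabrb1, Gabrb2 and Gabrd, chosen by their symbols; all 7 are among the 18848 genes of the table. Their levels were read in 23 RNA-seq libraries made from the brain, with no region named, of C57BL/6J males aged 17 postnatal days. There are 6 HT DCS, 6 HT vehicle, 5 WT DCS and 6 WT vehicle libraries. HT mice are heterozygous for a mutation of Grin2b, named C456Y in the title of the series, and WT mice are wild-type. The product of Grin2b, GluN2B, is part of NMDA receptors, which are cation channels opened by glutamate. DCS is the usual short form of D-cycloserine, which binds where glycine does on NMDA receptors and activates them in part, although the labels give only the abbreviation and no dose or schedule. No cell type was isolated, so every value is an average over the cells of the tissue, and fewer cells of a type cannot be told apart from less mRNA per cell. Whether each library is its own mouse is not stated, so the p-values measure the spread between libraries, which may be technical.

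The alpha subunit of a receptor largely sets where it sits and which drugs it answers to. In rodent forebrain the alpha2, alpha3 and alpha5 subunits are prominent in young receptors, and alpha2 and alpha3 give way in part to alpha1 in the weeks after birth. Receptors with alpha4 and delta lie outside synapses in thalamus, dentate gyrus and striatum, those with alpha6 and delta on cerebellar granule cells, and both kinds carry a steady, neurosteroid-sensitive inhibitory current.

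Of the 7 genes, 3 lie in 1 cluster on chromosome 5 (GRCm38, GENCODE M21). Gabra2 is at chr5:70957597-71095849 on the minus strand, Gabra4 at chr5:71569749-71658308 on the minus strand and Gabrb1 at chr5:71658113-72149037 on the plus strand. The annotated 5′ ends of Gabra4 and Gabrb1 overlap by 196 bases on opposite strands. The kit marks strand, but the strand setting of the quantification is not given in the sources used here, so reads from that overlap cannot be assigned with certainty. Gabra5 is at chr7:57407672-57510059 (minus), Gabrb2 at chr11:42419757-42629028 (plus), Gabrd at chr4:155384980-155398112 (minus) and Gabra3 at chrX:72432681-72656848 (minus). All 7 are annotated as protein coding.

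The RefSeq promoter table (GRCm38.p6) matched 6 of the 7 members; Gabrd had no entry. The 250 bases before 1 start site of 4 members are shown, 5′ to 3′ on the strand of the gene. These 4 have a window that touches no annotated exon (the most upstream such window where there are several), and they show how the start regions of subunit genes read in the same tissue differ. The windows are chr5:71095850-71096099 for Gabra2, chrX:72656920-72657169 for Gabra3, chr7:57510060-57510309 for Gabra5 and chr11:42420190-42420439 for Gabrb2. The Gabrb2 window lies inside the GENCODE span of its gene, while those of Gabra2, Gabra3 and Gabra5 lie before the annotated 5′ end. Capitals mark the TATA box motif TATAAA or the GC box motif GGGCGG, each searched on both strands, so that a match on the other strand is printed as its reverse complement. The 2 motifs do not overlap each other in these windows.
Gabra2: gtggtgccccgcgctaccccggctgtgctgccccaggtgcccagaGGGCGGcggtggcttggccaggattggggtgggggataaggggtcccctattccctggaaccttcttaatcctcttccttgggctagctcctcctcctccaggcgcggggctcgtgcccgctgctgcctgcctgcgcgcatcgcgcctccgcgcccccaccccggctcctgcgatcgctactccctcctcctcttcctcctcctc
Gabra3: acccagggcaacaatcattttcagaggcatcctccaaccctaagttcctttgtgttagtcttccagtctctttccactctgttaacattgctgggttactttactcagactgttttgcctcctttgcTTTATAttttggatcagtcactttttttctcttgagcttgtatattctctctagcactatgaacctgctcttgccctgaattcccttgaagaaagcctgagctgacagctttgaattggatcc
Gabra5: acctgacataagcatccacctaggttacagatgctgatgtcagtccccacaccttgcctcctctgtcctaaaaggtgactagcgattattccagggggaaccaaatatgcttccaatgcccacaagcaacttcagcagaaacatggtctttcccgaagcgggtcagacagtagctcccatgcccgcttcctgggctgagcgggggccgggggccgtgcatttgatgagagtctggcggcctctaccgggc
Gabrb2: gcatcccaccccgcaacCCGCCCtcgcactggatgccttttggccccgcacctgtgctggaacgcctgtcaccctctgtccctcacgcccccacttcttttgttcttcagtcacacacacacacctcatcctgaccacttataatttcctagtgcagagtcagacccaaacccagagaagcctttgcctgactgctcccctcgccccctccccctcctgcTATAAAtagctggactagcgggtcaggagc
The Gabra2 window had 70.0% G and C with 18 CpG sites, and the Gabrb2 window 58.8% with 8 CpG sites, where the median of all 32851 promoter windows was 52.4% with 6 CpG sites. The Gabra3 window had 42.4% and 0 CpG sites. TATAAA was found in the Gabra3 window on the opposite strand, in the Gabrb2 window, and in 12.4% of all windows. GGGCGG was found in the Gabra2 and Gabrb2 windows and in 32.7% of all windows. The Gabra5 window held neither. The cyclic AMP response element TGACGTCA, in 1.55% of all windows, was in none of the 4. A match describes letters only.

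The libraries were deep and of brain. Normalised read counts, the authors' read counts scaled between libraries, had sums of 32.3 to 33.5 M per library, and from the steps between low values the unscaled depth was estimated as 25.6 to 37.5 M reads. Tests ran on the 17256 genes whose mean reached 10, all 7 members among them. The neuronal gene Snap25 was read at 43400 or more and the astrocyte gene Aqp4 at 3760 or more in every library, while the lung gene Sftpc reached at most 25.3. Grin2b averaged 18950 ± 1880 normalised reads in HT DCS (SD, n = 6), 18270 ± 1880 in HT vehicle (n = 6), 18770 ± 2540 in WT DCS (n = 5) and 17910 ± 1190 in WT vehicle (n = 6), a total that does not separate the alleles. Some libraries were at an extreme more often than others: HT DCS replicate 5, HT DCS replicate 6 and HT vehicle replicate 6 were the lowest of the 23 libraries for 9.08%, 8.04% and 7.88% of the tested genes in that order, and the highest for 8.32%, 6.19% and 6.48%, where an even share is 4.35%. WT DCS replicate 1 was the lowest for 6.18% and the highest for 7.1%.

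Every subunit was read in every library, and the 7 did not stand at the same level. Divided by the length of all annotated exons, the Gabra3 level was 821 ± 29.6 normalised reads per kb (SD, n = 23), that of Gabrd 750 ± 58.2, that of Gabra5 709 ± 31.4 and that of Gabrb2 691 ± 46.5. The ranges over libraries of neighbours among these 4 overlapped. Gabra4 at 495 ± 15.7, Gabrb1 at 281 ± 17.4 and Gabra2 at 194 ± 15.8 per kb took places 5, 6 and 7 in that order in each of the 23 libraries. With the longest protein-coding transcript as the length, chosen after the data were seen, Gabrd (1120 per kb) and Gabrb2 (1100) came before Gabra3 (880), and Gabra4, Gabrb1 and Gabra2 held the last 3 places. Gabrb1 has the longest annotation of the 7, with 13838 bases of exon. Its longest protein-coding transcript has 13737 bases, so the second length hardly changed its value (281 and 283 per kb). Before division its mean was 3891 normalised reads, below only that of Gabrb2 (4397). Its low place therefore rests on that length, and which transcripts were used was not measured. The same length divides every library, so an order repeated over libraries does not bear on the choice of length.

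**Figure D1:**
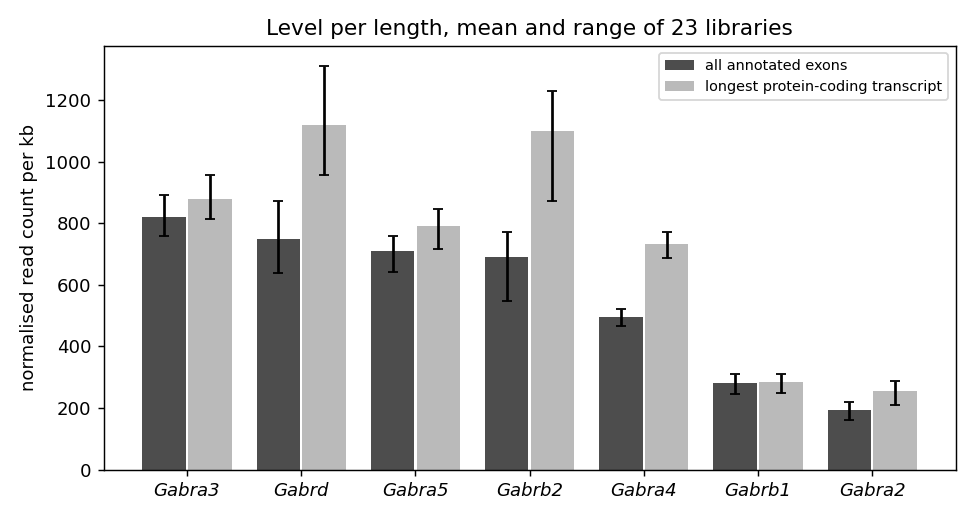
Mean normalised read count per kb of each of the 7 subunit genes over 23 libraries, with bars from 0 and whiskers from the lowest to the highest library, for 2 measures of gene length. Gabra3, Gabrd, Gabra5 and Gabrb2 overlap with their neighbours on the length of all exons (dark), while Gabra4, Gabrb1 and Gabra2 have the lowest 3 means on either length.

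The levels varied little between libraries. The coefficient of variation over all 23 libraries was 3.16% for Gabra4, 3.6% for Gabra3 and 4.43% for Gabra5, and 6.17% to 8.12% for the other 4 genes, where the median tested gene had 8.32%. That median includes genes of lower count: the members' means stood at percentiles 73.2 (Gabra2) to 91.3 (Gabrb2) of the table. No median was taken over genes of like level. Gabra2 had the highest coefficient of the 7, and its highest library (WT DCS replicate 1) had 1.36 times the reads of its lowest (WT vehicle replicate 6). A test across the 4 groups called none of the 7 (limma moderated F test with Benjamini-Hochberg adjustment, adjusted p of at least 0.993 for each). That test called 0 of the 17256 genes, with 830 at an unadjusted p under 0.05.

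**Figure D2:**
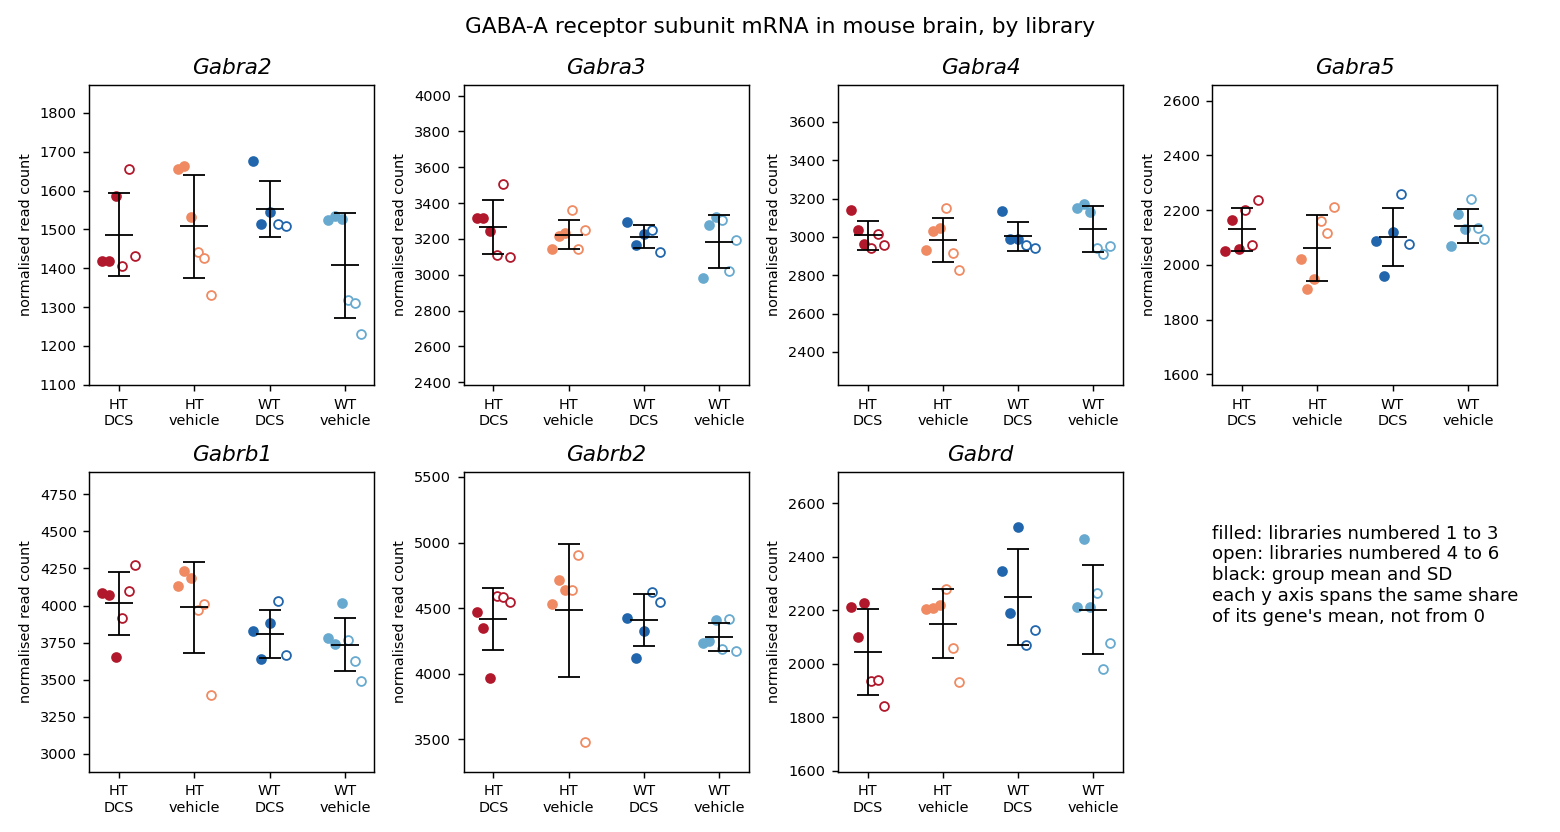
Normalised read count of each subunit gene in each library, by group, with the group mean and SD in black (n = 6, 6, 5 and 6 from left to right); filled points are libraries numbered 1 to 3, open points those numbered 4 to 6, and the y axes do not start at 0. For each gene the 4 groups overlap, and HT vehicle replicate 6 lies apart at 3480 for Gabrb2 and 3400 for Gabrb1.

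The first comparison addressed the mutation without DCS. In HT vehicle against WT vehicle none of the 7 members was called, and 0% of the 17256 tested genes were (limma, Benjamini-Hochberg adjusted p under 0.05). At an unadjusted p under 0.05 there were 729 genes (4.22%), none of them a member. No member had groups that did not overlap, where the HT vehicle libraries lay wholly above WT vehicle for 0.116% of all genes and wholly below for 0.133%. Of the 7, 4 had a higher and 3 a lower mean log2 level in HT vehicle, with a median log2 difference of 0.02, where 49.7% of all tested genes were higher and their median was -0.0005. The 95% intervals of the 7 differences together spanned -9.85% to 16.9%.

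Of the beta subunits, which form the GABA site together with alpha subunits, Gabrb1 had the smallest p of the 7 here. Its lowest, median and highest normalised read counts were 3400, 4070 and 4230 in HT vehicle, against 3490, 3754 and 4018 in WT vehicle. HT vehicle replicates 1, 2 and 3 lay above the whole WT vehicle range and replicate 6 below it, so the groups overlapped. The log2 difference was 0.09 ± 0.046 (SE, limma adjusted p = 0.999), with a 95% interval in percent from -0.197% to 13.7%, and it was 0.12 among libraries numbered 1 to 3 and 0.06 among those numbered 4 to 6. Gabrb2, the beta subunit that pairs with alpha1 in most mature receptors, had 3480, 4638 and 4907 in HT vehicle, against 4177, 4243 and 4414 in WT vehicle. Here 5 of 6 HT vehicle libraries lay above all 6 WT vehicle libraries and replicate 6 lay below all of them. The log2 difference of Gabrb2 was 0.06 ± 0.056 (limma adjusted p = 0.999). The size of both differences depended on single libraries. Without HT vehicle replicate 6 the log2 difference was 0.14 ± 0.039 for Gabrb1 (limma adjusted p = 0.664, unadjusted p = 0.00154) and 0.13 ± 0.036 for Gabrb2 (limma adjusted p = 0.652, unadjusted p = 0.00132), and neither was called. Those were the largest values with 1 library left out. The smallest were 0.072 for Gabrb1 (without WT vehicle replicate 6) and 0.032 for Gabrb2 (without HT vehicle replicate 5). Among the alternatives run the unadjusted limma p ranged from 0.00154 to 0.142 for Gabrb1 and from 0.00132 to 0.586 for Gabrb2.

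Among the alpha subunits Gabra2, found at the axon initial segment and at synapses of forebrain neurons, had 1330, 1487 and 1662 normalised reads in HT vehicle, against 1232, 1422 and 1534 in WT vehicle. The ranges overlapped over most of their length (log2 difference 0.10 ± 0.061 SE, limma adjusted p = 0.999). Gabra5, the subunit of extrasynaptic receptors of hippocampal pyramidal cells, had 1912, 2069 and 2213 in HT vehicle, against 2069, 2132 and 2240 in WT vehicle. Its log2 difference was -0.06 ± 0.039 (limma adjusted p = 0.999). Gabra3, known from monoamine neurons and the reticular thalamus, Gabra4 and Gabrd differed by 0.02, -0.03 and -0.03 on the log2 scale in that order, each less than its SE.

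Under DCS, genotype was compared between HT DCS and WT DCS. None of the 7 members was called and 0% of the 17256 genes were (limma, adjusted p under 0.05), with 5 members higher and 2 lower in HT DCS and a median log2 difference of 0.003. At an unadjusted p under 0.05 there was 1 member of 7, Gabrd, beside 7.55% of all tested genes (1302). No member had groups that did not overlap, where the HT DCS libraries lay wholly above WT DCS for 0.168% of all genes and wholly below for 0.243%. The 95% intervals of the 7 together spanned -16.5% to 12.7%.

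Gabrd encodes the delta subunit of extrasynaptic receptors. It had 1840, 2020 and 2228 normalised reads in HT DCS as lowest, median and highest, against 2347, 2188, 2509, 2069 and 2125 in the 5 WT DCS libraries. None of the 6 HT DCS libraries reached the WT DCS mean of 2248, yet the ranges overlapped. The log2 difference was -0.14 ± 0.060 (SE), or -9.14%, and its 95% interval ran from -16.5% to -1.09%. The limma adjusted p was 0.642 and the unadjusted p 0.0283. When any 1 library was left out the log2 difference was between -0.167 (without WT DCS replicate 4) and -0.098 (without WT DCS replicate 3). Its unadjusted limma p was 0.0587 without HT DCS replicate 5 and 0.0814 without HT DCS replicate 6. Among the alternatives run it ranged from 0.00993 to 0.118. Libraries numbered 1 to 3 alone gave -0.105 and those numbered 4 to 6 gave -0.14. In HT DCS, replicates 4, 5 and 6 (1934, 1940 and 1840) were the low ones and replicates 1, 2 and 3 had 2101 to 2228.

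Oligodendrocyte markers were also lower in HT DCS, and their part in the Gabrd difference was not tested. The summed level of 12 of 12 oligodendrocyte markers ran from 332000 to 512800 in HT DCS, against 452000 to 530600 in WT DCS, with no marker at 0 in any library of either group. In HT DCS 12 of 12 were lower, with a median log2 difference of -0.24, and none of the 12 was called. Of them 10 had an unadjusted limma p under 0.05, beside 7.55% of all tested genes. In HT vehicle against WT vehicle 12 of 12 were lower too, with a median of -0.095, none called and 1 at an unadjusted limma p under 0.05. Of 14 striatal markers 3 were higher and 11 lower in HT DCS than in WT DCS, with a median of -0.052 and none called. At an unadjusted limma p under 0.05 were 5 of the 14. Of 13 tested hindbrain markers 1 was higher and 12 lower, with a median of -0.43, none called and 3 at an unadjusted limma p under 0.05. Microglial markers leaned the other way, with 9 higher and 1 lower, and so did endothelial markers, with 7 higher and 1 lower. The part of these lists in the Gabrd difference was likewise not tested. The summed level of 14 of 14 cerebellar markers ran from 34940 to 45770 in HT DCS, against 42980 to 47560 in WT DCS, with medians of 43820 and 44300; the low end is HT DCS replicate 5. In HT DCS 3 of 14 were higher and 11 lower, with a median log2 difference of -0.05 and none called. Over the 23 libraries the deviations of Gabrd and of the cerebellar list had r = -0.11 and rho = -0.32 (permutation p = 0.741 and 0.163, adjusted 0.905 and 0.477), and r = -0.08 without the 2 farthest libraries. With the oligodendrocyte list Gabrd had r = 0.74 and rho = 0.68, described further below. Such deviations are taken from group means, so they do not measure a part in the difference between groups. The part of the cerebellar list in the Gabrd difference was not tested. Gabra6, the alpha partner of delta on cerebellar granule cells, had 2208 ± 229 normalised reads in HT DCS (n = 6) and 2542 ± 163 in WT DCS (n = 5), a log2 difference of -0.21 ± 0.066 SE (limma adjusted p = 0.596). Gabra4, the forebrain partner of delta, had 2941, 2988 and 3142 in HT DCS, against 3133, 2990, 2990, 2956 and 2942 in WT DCS. Its log2 difference was 0.003 ± 0.033 with a 95% interval of -4.36% to 4.99%.

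The remaining members under DCS were closer. Gabrb1 had 3650, 4077 and 4270 in HT DCS, against 3830, 3642, 3885, 4033 and 3665 in WT DCS, where 5 of 6 HT DCS libraries lay above the WT DCS mean and the ranges overlapped. The Gabrb1 difference was 0.07 ± 0.048 on the log2 scale (limma adjusted p = 0.74). Gabra2 had 1406, 1425 and 1656 in HT DCS, against 1677, 1515, 1546, 1513 and 1509 in WT DCS. The Gabra2 log2 difference was -0.06 ± 0.064, its sign opposite to that under vehicle. Gabra3, Gabra5 and Gabrb2 differed by 0.02, 0.02 and 0.003 on the log2 scale in that order.

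The effect of DCS was asked in each genotype. In WT mice (WT DCS against WT vehicle) none of the 7 members was called and 0% of all tested genes were (limma, adjusted p under 0.05); at an unadjusted p under 0.05 there was 1 member, Gabra2, beside 2.88% of all genes (497). No member had groups apart, where WT DCS lay wholly above WT vehicle for 0.122% of all genes and wholly below for 0.209%. Gabra2 had 1677, 1515, 1546, 1513 and 1509 normalised reads in WT DCS, against 1232, 1422 and 1534 as lowest, median and highest in WT vehicle. All 5 WT DCS libraries lay above the WT vehicle mean of 1408, and the ranges overlapped through WT vehicle replicates 1, 2 and 3. The log2 difference was 0.145 ± 0.064 (SE, limma adjusted p = 1, unadjusted p = 0.0318), or 10.6% with a 95% interval from 0.953% to 21.2%. Without WT DCS replicate 1, the highest of the 5, it was 0.117 ± 0.068 (limma adjusted p = 1, unadjusted p = 0.096).

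The Gabra2 difference was not of the same size in libraries of low and high number. In WT vehicle, replicates 1 to 3 had 1524 to 1534 and replicates 4 to 6 had 1232 to 1319; HT vehicle replicates 1 to 3 had 1531 to 1662 and replicates 4 to 6 had 1330 to 1443. The 2 sets of numbers did not overlap in either vehicle group. In WT DCS they did not overlap either but lay close, at 1515 to 1677 (n = 3) and 1509 to 1513 (n = 2). In HT DCS they overlapped, at 1418 to 1587 and 1406 to 1656. The log2 difference of WT DCS from WT vehicle was 0.05 among libraries numbered 1 to 3 and 0.23 among those numbered 4 to 6. The latter value rests on 2 WT DCS libraries. What the numbers stand for is not given in the labels. The sets lay apart for other members too, so this was not particular to Gabra2. Examples are Gabra4 in WT vehicle (3131 to 3172 and 2913 to 2952) and Gabra5 in HT vehicle (1912 to 2022 and 2116 to 2213). Gabrb2 (3967 to 4468 and 4550 to 4590) and Gabrd (2101 to 2228 and 1840 to 1940) were apart in HT DCS. How often such sets lay apart over all genes was not computed. The other 6 members differed by -0.03 to 0.04 on the log2 scale between WT DCS and WT vehicle.

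In HT mice (HT DCS against HT vehicle) none of the 7 members was called and 0% of all tested genes were (limma, adjusted p under 0.05; 828 genes, 4.8%, at an unadjusted p under 0.05, none of them a member). No member had groups apart, where HT DCS lay wholly above HT vehicle for 0.0522% of all genes and wholly below for 0.0753%. The log2 differences ran from -0.08 for Gabrd to 0.05 for Gabra5, and the 95% intervals together spanned -12.5% to 9.24%. Gabrd had 1840, 2020 and 2228 in HT DCS, against 1930, 2207 and 2280 in HT vehicle. Gabra5 had 2050, 2118 and 2236 in HT DCS, against 1912, 2069 and 2213 in HT vehicle. For both genes the groups overlapped. Without HT vehicle replicate 6 the Gabrb2 log2 difference was -0.09 ± 0.036, in place of -0.01 ± 0.056 with it (limma adjusted p = 0.613 and 0.992).

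The test of whether DCS acted differently in the 2 genotypes called none of the 7 members and 0% of all genes (limma interaction, adjusted p under 0.05; 756 genes, 4.38%, at an unadjusted p under 0.05, none of them a member). The Gabra2 interaction was -0.165 ± 0.089 on the log2 scale (limma adjusted p = 0.984, unadjusted p = 0.0739), with a positive DCS difference in WT and a difference of -0.02 in HT. The HT difference of Gabra2 was -0.13 among libraries numbered 1 to 3 and 0.09 among those numbered 4 to 6, while its interaction was -0.18 and -0.14 in these sets. The Gabrd interaction was -0.105 ± 0.082, and that of Gabrb2 was -0.06 ± 0.082, or -0.13 ± 0.051 without HT vehicle replicate 6 (limma adjusted p = 0.721). These intervals are wide: the Gabra2 one ran from -21.4% to 1.19%.

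**Figure D3:**
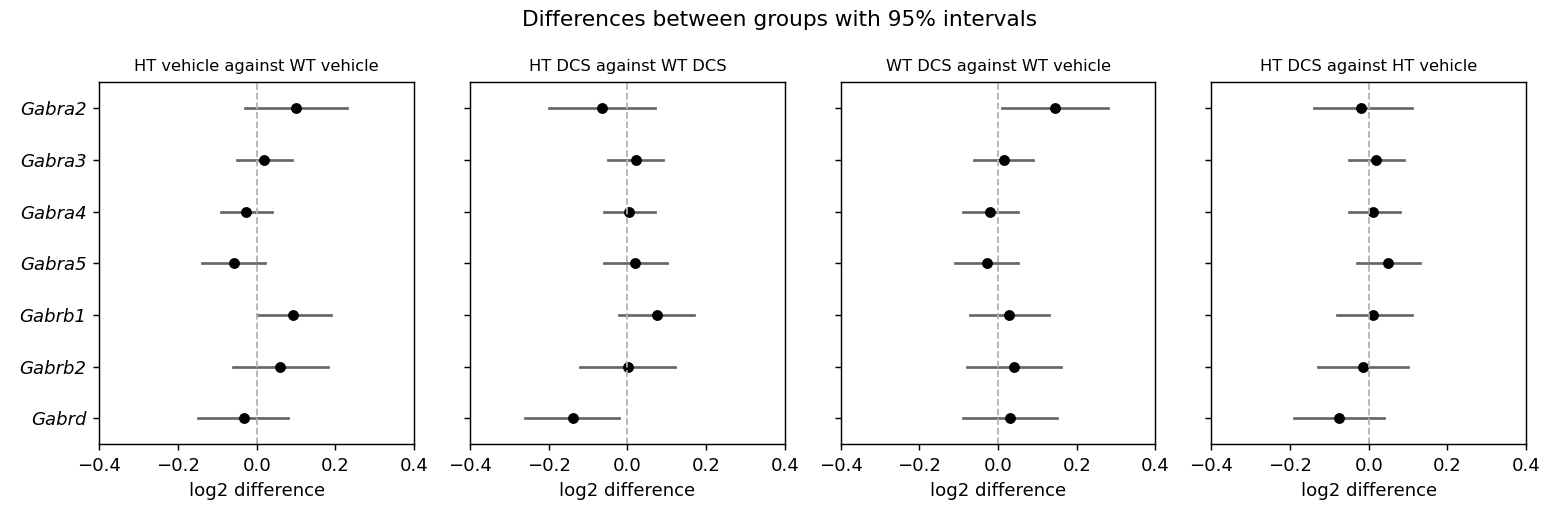
Log2 difference of each subunit gene in 4 comparisons, with points for the limma estimate and lines for the 95% interval; positive values are higher in the group named first. All points lie between -0.138 and 0.145, and the lines that leave out 0 are those of Gabrd in HT DCS against WT DCS and of Gabra2 in WT DCS against WT vehicle.

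Treated heterozygous mice were also set against untreated wild-type mice. In HT DCS against WT vehicle none of the 7 was called and 0% of all genes were (limma, adjusted p under 0.05); 1 member, Gabrb1, had an unadjusted p under 0.05, beside 7.18% of all genes (1239). No member had groups apart, where HT DCS lay wholly above WT vehicle for 0.133% of all genes and wholly below for 0.18%. Gabrb1 had 3650, 4077 and 4270 in HT DCS, against 3490, 3754 and 4018 in WT vehicle, a log2 difference of 0.10 ± 0.046 (limma adjusted p = 0.674). It was 0.03 among libraries numbered 1 to 3 and 0.17 among those numbered 4 to 6. This comparison shares the HT DCS and WT vehicle libraries with those above.

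Averaged over treatments, HT against WT called none of the 7 and 0% of all genes (limma, adjusted p under 0.05); 2 members had an unadjusted p under 0.05, beside 7.17% of all genes (1237). They were Gabrb1, with a log2 difference of 0.08 ± 0.033 (limma adjusted p = 0.645, unadjusted p = 0.0194), and Gabrd, with -0.09 ± 0.041 (limma adjusted p = 0.691, unadjusted p = 0.0474). Among libraries numbered 1 to 3 these were 0.09 and -0.08, and among those numbered 4 to 6 they were 0.08 and -0.08. The intervals of Gabra3, Gabra4 and Gabra5 were the narrowest: -2.0% to 5.01%, -4.01% to 2.38% and -5.12% to 2.79% in that order. DCS against vehicle averaged over genotypes called none of the 7 and 0% of all genes (545, or 3.16%, at an unadjusted p under 0.05, none of them a member), with Gabra2 at 0.06 ± 0.044 the furthest from 0. That Gabra2 value was -0.04 among libraries numbered 1 to 3 and 0.16 among those numbered 4 to 6, so its sign was not the same in both sets.

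Within the groups, the subunits varied together in part. As deviations from group means over the 23 libraries, 21 pairs of members were compared. Gabrb1 and Gabrb2, on chromosomes 5 and 11, had Pearson r = 0.78 (permutation p = 0.00417, adjusted 0.0438) and Spearman rho = 0.49 (permutation p = 0.0208, adjusted 0.109). Without the 2 libraries farthest in Gabrb1 r was 0.41, and without HT vehicle replicate 6 it was 0.60, so the size of the relation rests on few libraries. Values of r within a set of numbers used deviations from the group means of that set, which leaves out differences between the sets. On these, Gabrb1 and Gabrb2 had r = 0.94 (n = 12) for numbers 1 to 3 and r = 0.77 (n = 11) for 4 to 6. Gabra4 and Gabrd, partners in extrasynaptic receptors, had r = 0.66 (permutation p = 0.00106, adjusted 0.0223) and rho = 0.69 (permutation p = 0.00054, adjusted 0.0113), with r = 0.59 without the 2 farthest libraries. Among libraries numbered 1 to 3 that r was 0.09 and among those numbered 4 to 6 it was 0.77, so it did not hold in both sets. Gabra4 and Gabrb1, whose 5′ ends overlap, had r = 0.47 and rho = 0.35 (permutation p = 0.045 and 0.123, adjusted 0.135 and 0.259). Gabra2 and Gabra5 had r = -0.47 and rho = -0.48 (permutation p = 0.0319 and 0.0286, adjusted 0.135 and 0.12).

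The same deviations were set against the mean log2 level of 13 marker lists for brain regions and cell types, which makes 91 relations. Gabra5 was lower where astrocyte markers were higher, with r = -0.79 and rho = -0.78 (permutation p = 0.00014 and 0.00027, adjusted 0.00637 and 0.0132). Without the 2 libraries farthest in Gabra5 r was -0.72. On deviations from the group means of each set, r was -0.42 for numbers 1 to 3 (n = 12) and -0.79 for 4 to 6 (n = 11). Gabra5 and oligodendrocyte markers had r = -0.69 and rho = -0.75 (permutation p = 0.00029 for each, adjusted 0.0088 and 0.0132), with r = -0.61 without the 2 farthest libraries and -0.61 and -0.59 within the 2 sets of numbers. Gabrd and oligodendrocyte markers had r = 0.74 and rho = 0.68 (permutation p = 8e-05 and 0.00126, adjusted 0.00637 and 0.0382), and r = 0.76 without the 2 farthest libraries. Within the sets, taken in the same way, r was 0.10 and 0.48. Both are below the pooled value, which also includes differences between the sets and did not hold among libraries numbered 1 to 3. The permutations were within groups and did not keep the 2 sets of numbers apart. These p-values, and those of the pairs of members above, do not account for differences between the sets and may be too small. Scaled values of 1 library share their total, and the cause of these relations was not tested.

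**Figure D4:**
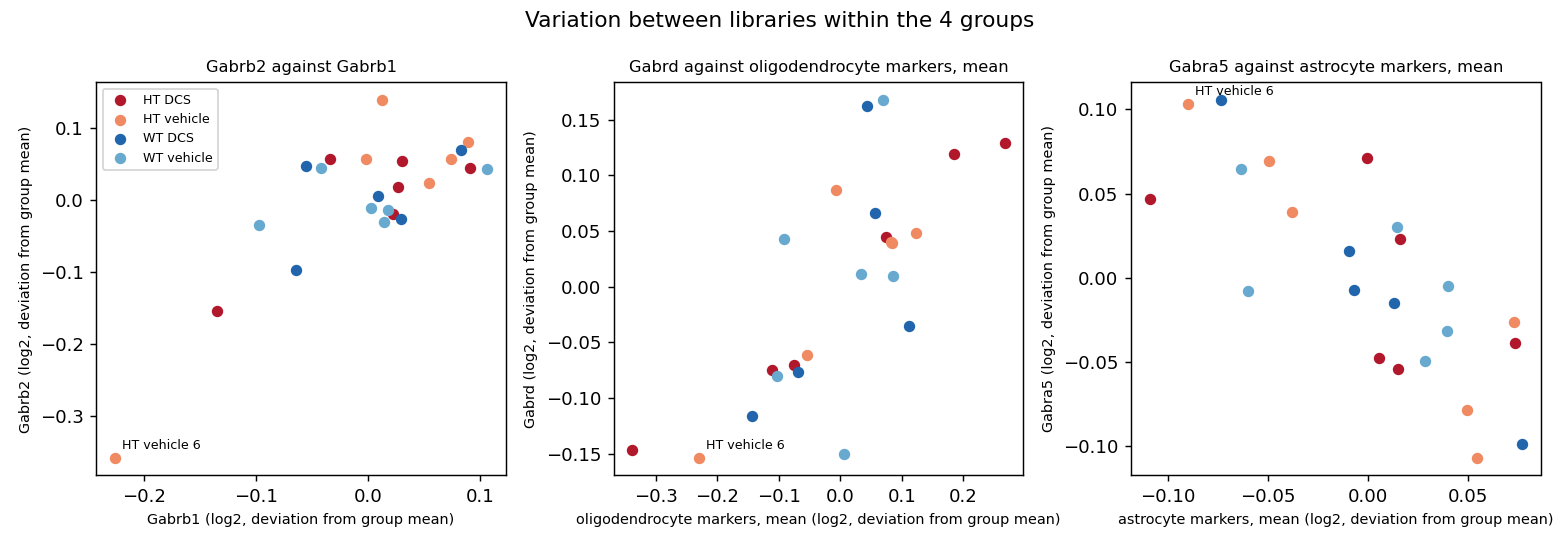
Deviation of each library from its group mean on the log2 scale, for Gabrb2 against Gabrb1, Gabrd against the mean of 12 oligodendrocyte markers and Gabra5 against the mean of 10 astrocyte markers; colours give the 4 groups. The r values are 0.78, 0.74 and -0.79 from left to right, and HT vehicle replicate 6 lies at the lower left of the first and second plots and at the upper left of the third.

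Outside the family, the genes most like each member over the 23 libraries were named from 14756 tested genes, by Pearson r of the same deviations, as a description. Hipk2 (r = 0.94) and Camk4 (0.92) were nearest to Gabrb2, Atp8a1 (0.90) to Gabrb1, and Rcan2 (0.88) and Nrsn1 (0.87) to Gabrd. HT vehicle replicate 6 deviated furthest of all libraries for Gabrb2 (-0.3571 on the log2 scale) and Gabrb1 (-0.2261). These r values were not computed without it and may rest largely on that library. Bcl11a (0.87) and Bzw2 (0.86) were nearest to Gabra5, Oxr1 and Rgs4 (0.84 each) to Gabra4, Ubqln4 (0.81) and Pip4k2a (0.80) to Gabra2, and Myh7b (0.80) and Styx (0.74) to Gabra3.

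Other genes of GABA signalling were likewise without calls. Of 10 measured further GABA-A subunits of 12 listed, none passed in either direction in any of the 8 comparisons (limma, adjusted p under 0.05). In HT DCS against WT DCS 5 were higher and 5 lower, and Gabra6, given above, had the smallest p. In HT vehicle against WT vehicle 3 were higher and 7 lower, with Gabrq, the theta subunit, at 287.7 ± 25.5 normalised reads over HT vehicle libraries and 318 ± 13.6 over WT vehicle libraries (n = 6 each, limma adjusted p = 0.999). None of the 22 measured anchoring and trafficking genes of 23 listed passed in any comparison either. Shisa7, which encodes a membrane protein that binds GABA-A receptors, had 5685 ± 325 in HT DCS (n = 6) and 5343 ± 176 in WT DCS (n = 5; limma adjusted p = 0.647). Dag1, the dystroglycan gene, had 5263 ± 261 in HT vehicle and 4962 ± 217 in WT vehicle (n = 6 each, limma adjusted p = 0.999).

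None of the 8 genes of GABA synthesis, transport and breakdown passed in any comparison; 2 were higher and 6 lower in HT DCS against WT DCS, and 5 were higher and 3 lower in HT vehicle against WT vehicle. Slc32a1, the vesicular transporter that loads GABA into synaptic vesicles, had the smallest p of them under both treatments. It had 4709 ± 249 normalised reads in HT DCS (n = 6) and 5101 ± 233 in WT DCS (n = 5), a log2 difference of -0.12 ± 0.034 (SE, limma adjusted p = 0.596). It had 4765 ± 71 in HT vehicle and 4998 ± 127 in WT vehicle, a log2 difference of -0.07 ± 0.033 (n = 6 each, limma adjusted p = 0.999). Of the 8 genes of GABA-B receptors, the metabotropic receptors of the same transmitter, none passed. Kcnj9, a potassium channel that GABA-B receptors open, had 4764 ± 269 in HT DCS (n = 6) and 5012 ± 241 in WT DCS (n = 5; limma adjusted p = 0.683), and Kctd16, an auxiliary subunit, had 539.4 ± 124 in HT vehicle and 492.8 ± 41.4 in WT vehicle (n = 6 each, limma adjusted p = 0.999).

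Of 9 chloride transport genes, some of which set whether GABA excites or inhibits, none passed in any comparison. Slc12a2, the importer NKCC1, had 3481 ± 196 in HT DCS (n = 6) and 3680 ± 205 in WT DCS (n = 5; limma adjusted p = 0.695), and Slc12a7, a potassium-chloride exporter, had 217.5 ± 80.6 in HT vehicle and 163 ± 11.3 in WT vehicle (n = 6 each, limma adjusted p = 0.999). None passed among 6 measured genes, of 7 listed, for neurosteroids and other ligands. Srd5a1, a reductase of neurosteroid synthesis, had 737.4 ± 57.3 in HT DCS (n = 6) and 801.6 ± 65.1 in WT DCS (n = 5; limma adjusted p = 0.712), and Akr1c14, a hydroxysteroid dehydrogenase, had 46.97 ± 5.49 in HT vehicle and 36.46 ± 11.0 in WT vehicle (n = 6 each, limma adjusted p = 0.999). Of the 4 glycine receptor genes tested none passed; Glra1, the brainstem and spinal cord alpha subunit, had 173.5 ± 54.2 in HT DCS (n = 6) and 214.1 ± 18.4 in WT DCS (n = 5; limma adjusted p = 0.698), and 198.2 ± 56.5 in HT vehicle and 237.9 ± 20.7 in WT vehicle (n = 6 each, limma adjusted p = 0.999). The summed level of 14 of 14 hindbrain markers ran from 1244 to 2458 in HT DCS, 1819 to 2396 in HT vehicle, 2016 to 2393 in WT DCS and 2007 to 2569 in WT vehicle. Of the 13 tested, 1 was higher and 12 lower in HT DCS than in WT DCS, with a median log2 difference of -0.43. In HT vehicle against WT vehicle 3 were higher and 10 lower, with a median of -0.41. None was called in either comparison. Of the 14 markers 3 were at 0 in some HT DCS library, not necessarily the same one, against none in the other groups. The part of this list in the Glra1 values was not tested.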

How the data were processed

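The authors deposited 1 table of read counts scaled between libraries (a signal, decimal and never negative). Salmon 1.1.0, DESeq2 1.26.0, R 3.6.2 and the build GRCm38 stand in the submitters' processing notes without their roles; filters and annotation are not given. Of low values (at most 5 reads by the library's own step) only 61.0% to 80.4% came within 0.15 of a whole read, so reads could not be recovered and no count model was used. Identifiers were matched to symbols (16 had none) and to GENCODE M21 for coordinates and exon lengths.

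Values were tested as log2(value + 1) with limma 3.58.1 in R 4.3.3: 1 coefficient per group over 23 libraries, trended robust moderation, two-sided tests, Benjamini-Hochberg adjustment at 0.05 over 17256 genes with a mean of at least 10, in 8 comparisons. Fold changes on this scale understate those of low genes. The fit was tested on simulated data. Correlations used 100000 permutations within groups. Members and lists were chosen with earlier results of these data known. Named are all members, the gene of smallest p per pathway list in each vehicle and DCS genotype comparison, and the 2 genes most like each member, leaving out predicted models; 1 gene that this rule names is not reported here.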

Additional observations from a re-analysis of the deposited data

Results flagged for a closer look

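In 28 sets of values (7 genes in 4 groups), 4 sets had a value far from the rest of their group by Dixon's test at 95%, from 2 libraries; chance gives about 1 in 20 sets, and sets that share libraries are not independent. WT DCS replicate 1 was far above the other 4 WT DCS libraries for Gabra2 (1677 normalised reads) and for Gabra4 (3133). HT vehicle replicate 6 was far below the other 5 HT vehicle libraries for Gabrb1 (3400) and for Gabrb2 (3480).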

How the results depend on the processing

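Of 1883 log2 differences of the 7 members recomputed under the alternatives (11 settings and the omission of each library, 8 comparisons), 0 had an adjusted p under 0.05 in limma, and the lowest was 0.311, for Gabrb1 in HT DCS against WT vehicle without HT DCS replicate 3. The other sign was taken by 53, each within 1 SE of the value reported. Over all genes, the call count was 0 in the fits reported. For HT against WT averaged over treatments it was 2 with quantile normalisation and 4 with the library numbers 1 to 3 against 4 to 6 as a term. With the replicate number as a block it was 6 with either numbering for that comparison, and 11 (numbers of the titles) or 2 (numbers of the descriptions) for HT DCS against WT vehicle; the block left the count at 0 in the other 6 comparisons and called no member. Libraries of the same number in different groups had correlations of -0.068 to 0.303 (median 0.0149). Those of different numbers had -0.167 to 0.154 (median -0.00254). Of 23 libraries, 7 correlated best with one of their own number. These values do not settle whether the numbers mark pairs, and the fits reported did not take them as pairs. Leaving out 1 library gave counts of 0 to 1 for HT DCS against HT vehicle, HT DCS against WT DCS, HT DCS against WT vehicle and HT against WT averaged over treatments, and 0 for the other 4. The cause of these changes was not tested. Each member had 1232 or more normalised reads in every library, and with 5 or 6 libraries a group the widest 95% interval between a pair of groups was 0.953% to 21.2% (Gabra2, WT DCS against WT vehicle).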
